A study of Rattus norvegicus with 16 samples.

Results

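The lymphoid cells of the rat intervertebral disc (IVD) at 8 weeks after surgery are the cells that the authors' own clustering set apart under the name Immune cells, which the study's text calls lymphoid. They were taken by that deposited name alone, without any measured value chosen here. There were 3725 such cells among 55347 cells of the 8 libraries of this time point and 149272 cells of the whole series. Male Sprague-Dawley rats aged 8 weeks had the lowest lumbar discs stabbed once each with a needle on one side. From each of rats 5 to 8, the punctured discs were pooled as 1 library (LDP, lumbar disc puncture) and the unpunctured discs just above them as another (CON). CON discs therefore came from operated animals, at the same age and from the same rat as the LDP discs, but from higher lumbar levels. No allele, drug or transgene was involved. All libraries were read as 10x Genomics 3′ single-cell RNA sequencing, in which each unique molecular identifier (UMI) stands for 1 captured transcript.

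B lymphocytes arise in the bone marrow. A precursor first expresses the interleukin 7 receptor (Il7r), terminal transferase (Dntt) and the surrogate light chain (Vpreb1, Igll1), then divides, and then, as a small resting pre-B cell, rearranges its light chain genes with the RAG recombinase (Rag1, Rag2). On the way to a mature B cell the recombinase is lost, and Ms4a1 (CD20), MHC class II with its invariant chain Cd74, and Fc receptors such as Fcmr and Fcer2 are gained. The chemokine receptor Cxcr4 holds precursors in the marrow, Cd79b carries the signal of the B-cell receptor and Blnk is the adaptor that couples it to calcium signalling. The healthy adult disc is largely avascular.

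The number of lymphoid cells differed widely between libraries. CON rat 6 gave 1590, LDP rat 7 gave 679, CON rat 5 gave 635, LDP rat 5 gave 397, LDP rat 8 gave 193, LDP rat 6 gave 191, CON rat 7 gave 33 and CON rat 8 gave 7. The median depth per lymphoid cell was 1581 to 3704 UMIs over the 8 libraries, with the lowest value in CON rat 8. In IVD cells of the same libraries it was 5162 to 9889 UMIs. Of the 8-week lymphoid cells, 154 had fewer than 1000 UMIs (86 CON, 68 LDP). Only 1 lymphoid barcode was shared in all 28 pairs of libraries. CON rat 8, with 7 cells, was left out of every comparison of gene levels, so that those compare 3 CON with 4 LDP libraries. CON rat 7, with 33 cells, stood apart: across 7044 genes, its mean profile correlated with those of the other 6 libraries at r = 0.659 to 0.718, whereas those 6 correlated with each other at 0.841 to 0.95. These are correlations across genes, which are not independent replicates.

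Levels of the marker genes describe the class and are no independent test of its name, since the authors named it from such genes. Levels are given as mean CPM, the UMIs of a gene scaled to the same total in every cell and averaged over the lymphoid cells of a library; in a 3′ assay this does not depend on transcript length, but capture differs between genes, so levels are compared across libraries more safely than across genes. Cd79b lay at 661, 745 and 498 CPM in CON rats 5, 6 and 7 and at 912, 778, 733 and 665 CPM in LDP rats 5 to 8. Blnk lay at 547, 875 and 557 CPM in CON and at 441, 799, 549 and 807 CPM in LDP. Rag1 lay at 692, 1161 and 333 CPM in CON and at 372, 1097, 483 and 1041 CPM in LDP. All 3 genes were present in every library, the groups overlapped, and the mean level in IVD cells was 1.92 CPM for Cd79b, 2.05 CPM for Blnk and 1.94 CPM for Rag1. Cxcr4 ranged from 314 CPM in LDP rat 8 to 1154 CPM in LDP rat 6, with 540 to 1021 CPM in CON. In shares of cells with 1000 UMIs drawn from each, a UMI of Cd79b was found in 30.8 to 55.6% of lymphoid cells and in 0.0166 to 0.706% of IVD cells, although the IVD cells were deeper before thinning. With all UMIs counted the lymphoid share was 54.5 to 81.2%.

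Among the 1674 genes with a mean of at least 100 CPM in lymphoid cells, the 20 with the largest ratio to the other cells of the same libraries included many B-lineage genes. This is a description, since the authors' clusters were drawn on these values. Ratios were taken after adding a pseudocount of 1 to both means, which understates them for genes that are low in the other cells. Cd79b stood at 94.5 times, Rag1 at 91.8 times, Mzb1 (a chaperone of antibody assembly) at 84.4 times, Myb at 72.7 times, Fcrla at 66.9 times, Blnk at 65.7 times, the BAFF receptor Tnfrsf13c at 63.4 times, the kinase Syk at 59.4 times and Spib at 55.5 times the other cells on that scale. A gene with no symbol, AABR07065625.1, was among the highest in level (7929 CPM) and in ratio (110 times). The genes Cd79a, Ighm and Ighd were not analysed here.

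Genes of other blood lineages were counted at varying levels. Of the T and NK list, 15 of 20 genes were listed in both groups and summed to 173 to 332 CPM. Thy1, which is not restricted to T cells, gave 92.0 to 268 CPM of it. In LDP rat 5, where the list summed to 207 CPM, the T-cell genes Cd3g, Lck, Cd3d and Trbc2 lay at 48.7, 33.6, 10.7 and 10.7 CPM beside Thy1 at 92.0 CPM. Cd4 had no UMI in any lymphoid cell drawn to 1000 UMIs, which allows up to 0.194% of cells with a UMI in CON rat 6 and up to 11.5% in CON rat 7. These limits cover counting error only and bear on cells with a UMI at this depth, not on cells that express the gene. Cd3g, a part of the T-cell receptor complex, was found in 0 to 5.15% of cells at that depth. Macrophage genes summed to 175 to 605 CPM, of which Cst3, a gene at 7152 CPM in IVD cells, gave 159 to 545 CPM. Csf1r, the receptor for the macrophage growth factor, reached at most 7.59 CPM. Lyz2, of the same list, was higher in some of the clusters described below. It lay at 149 CPM in cluster 10, 70.9 in cluster 7 and 69.1 in cluster 5, and at no more than 13.8 CPM in the others. Plasma cell genes summed to 391 to 811 CPM, with Irf4 at 154 to 488, Mzb1 at 137 to 312 and Jchain at 39.7 to 127 CPM, while Sdc1 and Prdm1 reached at most 11.5 and 14.8 CPM. Granulocyte genes summed to 0 to 245 CPM. Endothelial genes summed to at most 16.5 CPM.

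Haemoglobin transcripts were counted in lymphoid cells at very different levels between libraries. Hba-a2 (alpha globin) lay at 5944, 1861 and 21.5 CPM in CON rats 5, 6 and 7 and at 2990, 77.0, 68.3 and 988 CPM in LDP rats 5 to 8. At 1000 UMIs per cell it was found in 78.8, 45.1 and 0% of lymphoid cells in CON and in 68.0, 6.95, 6.01 and 3.21% in LDP. The same libraries were high in IVD cells, with 47.6, 20.9 and 1.07% in CON and 34.4, 2.75, 2.82 and 0.745% in LDP. Of the clusters described below, cluster 10 held Hba-a2 at 129716 CPM, against 202 to 1679 CPM in the others. CON rats 5 and 6 gave 23 and 15 of its 43 cells, so the means of those libraries rest partly on few cells. The part of red cell RNA in other results was not tested.

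Early B-lineage genes were found in a small share of the lymphoid cells, and LDP rat 8 stood above the rest. Il7r lay at 128, 19.8 and 53.1 CPM in CON rats 5, 6 and 7 and at 54.1, 47.4, 102 and 483 CPM in LDP rats 5 to 8. Dntt, which adds untemplated bases at recombination joints, lay at 30.9, 0.962 and 13.1 CPM in CON and at 32.1, 41.5, 49.3 and 229 CPM in LDP. Vpreb1 lay at 11.6, 15.9 and 49.4 CPM in CON and at 29.8, 65.8, 34.6 and 217 CPM in LDP. In all 3 genes the LDP rat 8 library held the highest level. The remaining LDP libraries overlapped CON in Il7r and Vpreb1 and lay just above CON in Dntt. Igll1, the other part of the surrogate light chain, was at 9.75 to 32.0 CPM in CON, at 29.4 to 61.8 CPM in LDP rats 5 to 7 and at 211 CPM in LDP rat 8. Arpp21 (274 CPM) and Erg (86.6 CPM) were likewise highest in LDP rat 8, against at most 108 and 18.7 CPM elsewhere. Genes of still earlier progenitors were near 0: Cd34 had no UMI in the 7 libraries, and Flt3 and Kit reached at most 0.878 and 5.65 CPM. The whole list of pro-B and pre-B genes, 24 of 28 of which were listed in both groups, summed to 3081 to 4414 CPM in CON and to 3099 to 5690 CPM in LDP.

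Transcription factors that hold B-cell identity were present throughout. Ebf1 lay at 422 to 861 CPM over the 7 libraries, Tcf3 at 301 to 412 CPM and Pou2af1 at 274 to 398 CPM. Pax5, the factor that commits cells to the lineage, was low at 11.1 to 50.8 CPM. Of the signalling genes, Syk lay at 215 to 551 CPM, Lyn at 181 to 382 CPM and Btk at 22.5 to 43.5 CPM. Rag2, the partner of Rag1 in the recombinase, was counted at 32.5 to 119 CPM, below Rag1 in every library.

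Genes of immature and mature B cells differed in which library held most. Cd74 lay at 1033, 864 and 1874 CPM in CON rats 5, 6 and 7 and at 1017, 1066, 1032 and 428 CPM in LDP rats 5 to 8. Ms4a1 lay at 52.2, 52.4 and 115 CPM in CON and at 64.7, 71.6, 41.8 and 4.61 CPM in LDP. CON rat 7 was the highest and LDP rat 8 the lowest library for both genes. The class II gene RT1-Da followed the same order at its ends, with 372 CPM in CON rat 7 and 6.85 CPM in LDP rat 8; RT1 genes are near-identical copies of each other, so reads may be divided unevenly among them. Cr2 and Fcer2, receptors of mature B cells, reached 80.7 and 114 CPM in CON rat 7 and at most 12.2 and 15.1 CPM elsewhere. Other members of the list were low in CON rat 7: Tnfrsf13c lay at 35.9 CPM there against 80.5 to 386 CPM elsewhere, Cd40 at 9.10 against 27.4 to 97.0 CPM, and Ccr7 at 0 CPM. Cd69 was highest in CON rat 6 (367 CPM) and lowest in LDP rat 8 (60.3 CPM). With 33 cells, CON rat 7 rests on few transcripts, 91463 UMIs in all against 565391 or more in the other 6 libraries.

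**Figure D1:**
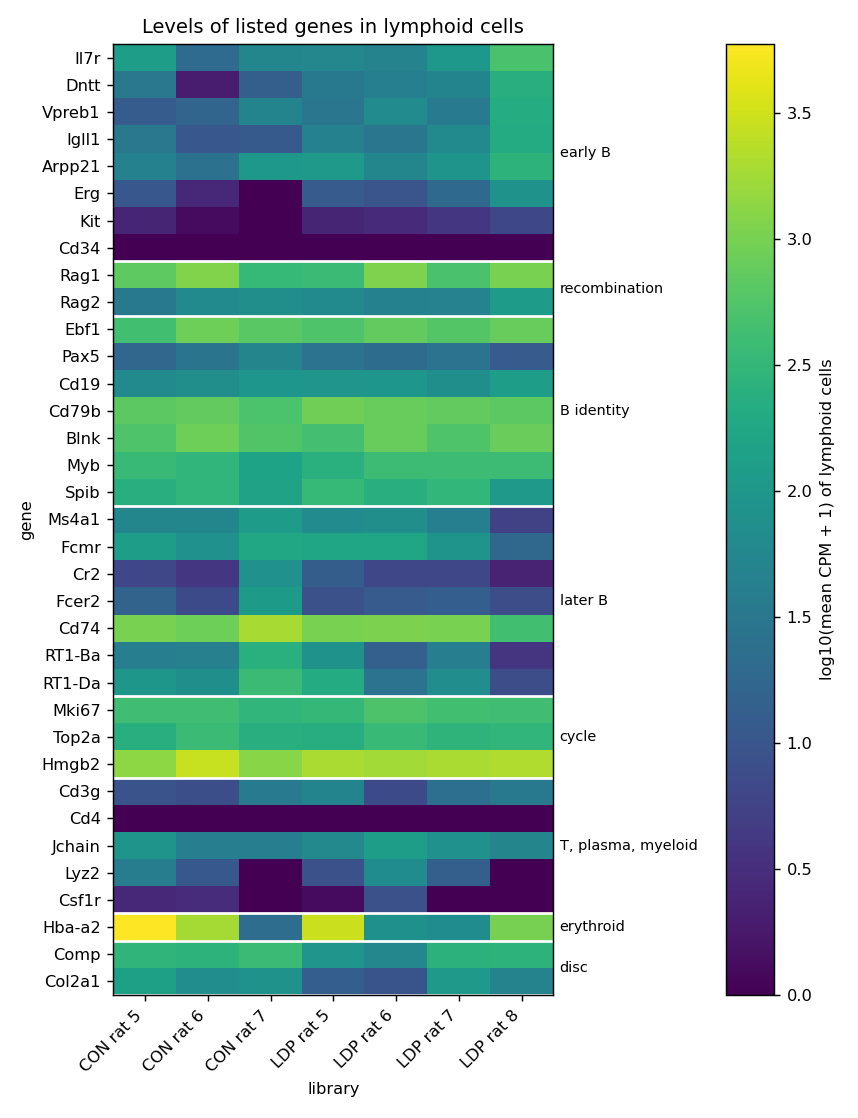
Mean level of listed genes in the lymphoid cells of each library, as log10(mean CPM + 1) by colour, with genes in rows grouped by role and the 7 libraries of at least 20 lymphoid cells in columns. Rag1, Ebf1, Cd79b and Blnk are bright in every column, the early genes are brightest in LDP rat 8, the 7 later B genes plotted are brightest in CON rat 7, and Cd34 and Cd4 are dark throughout.

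Clustering of all 3725 cells together, without any correction for library, gave 11 clusters, which are a description and were not tested. Some were led by stage genes, and others by cycle, globin or stress genes or came largely from 1 library. Cluster 4 (230 cells) was led by Dntt and held Dntt at 412, Il7r at 557, Igll1 at 317 and Rag1 at 1441 CPM, with Cd74 at 142 CPM. Cluster 3 (258 cells) was led by RT1-Da, Ms4a1 and Fcmr and held Cd74 at 4478, Ms4a1 at 498 and Rag1 at 63.3 CPM. Cluster 1 (899 cells) had the highest Rag1 level, 1729 CPM, with Dntt at 0.634 and Ms4a1 at 13.9 CPM. CON rats 5 and 6 gave 372 and 449 of its cells, LDP rats 5 and 8 gave 6 and 1, and no other library gave more than 43. It was led by AC119007.3, Acbd5 and Stard9, which are not among the listed stage genes. Rag1 was thus lowest where genes of later B cells were highest. The cluster led by early genes made up 5.04, 0.126 and 3.03% of lymphoid cells in CON rats 5, 6 and 7 and 6.80, 5.76, 8.54 and 50.8% in LDP rats 5 to 8. The cluster led by later genes made up 11.97, 3.90 and 21.2% in CON and 12.6, 7.85, 6.92 and 0.518% in LDP. LDP rat 8 thus held the largest share of the former and the smallest of the latter among the 7 libraries.

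Several clusters belonged largely to 1 library. Of the 209 cells of cluster 9, 189 came from LDP rat 5, and of the 697 cells of cluster 2, 366 came from LDP rat 7. CON rat 6 gave 389 of the 465 cells of cluster 11, which was led by Hspa1a, Gadd45g and Jun, genes of the heat shock and early stress response, and 168 of the 194 cells of cluster 8, led by Nfkb1 and Cd40. Immediate early and heat shock genes summed to 4810 CPM in CON rat 6 and to 1155 to 2450 CPM in the other 6 libraries. Cluster 10, of 43 cells, was led by globin genes and held Hba-a2 among its top genes. Others of the erythroid list were also high there, with Ahsp, Alas2 and Slc4a1 at 1375, 532 and 533 CPM, beside Cd79b at 474 CPM. CON rat 5 gave 23 of its cells and CON rat 6 gave 15. No doublet caller was run, and how the authors treated doublets is not given in the sources used here.

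**Figure D2:**
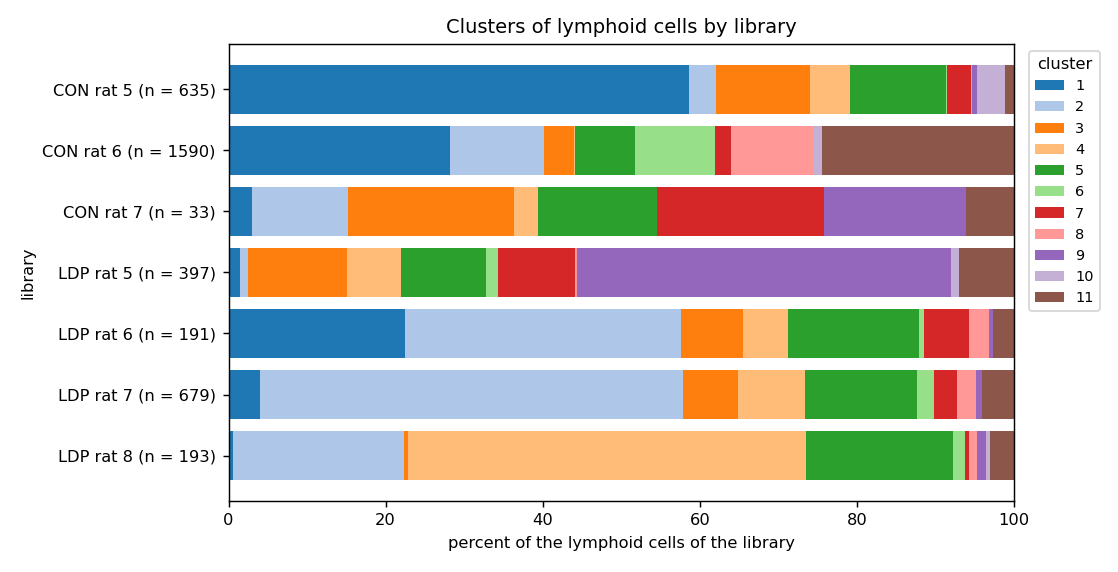
Share of the lymphoid cells of each library in each of 11 clusters, as stacked bars in percent, with the number of cells beside each library. The largest cluster is 4 in LDP rat 8 (50.8%), 9 in LDP rat 5, 2 in LDP rat 7 and 1 in CON rat 5 (58.6%), while cluster 5, of mostly cycling cells, appears in every library.

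Between 19.2 and 27.2% of the lymphoid cells of each of the 7 libraries were called cycling. A cell was called cycling where at least 10 of 1000 UMIs drawn from it belonged to 98 genes of S phase and of G2 and mitosis, of which 93 were listed in both groups. In all, 836 of 3571 cells of at least 1000 UMIs were called. The share was 20.5, 27.2 and 19.2% in CON rats 5, 6 and 7 and 21.7, 20.3, 20.03 and 20.3% in LDP rats 5 to 8, and in CON rat 8 it was 1 of 7 cells. Myeloid cells of the same libraries gave 0 to 3.25%, endothelial cells of the 4 LDP libraries 0 to 1.82% and IVD cells 0.0493 to 0.503% by the same call. Mki67, a marker of dividing cells, was found at 1000 UMIs in 11.8 to 15.5% of lymphoid cells and in 0.0763 to 1.13% of IVD cells. Topoisomerase Top2a was found in 3.85 to 13.97% of lymphoid cells and in at most 0.409% of IVD cells.

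The call divides a range rather than separate types. Cells with 8 to 11 such UMIs, next to the limit, made up 14.7, 13.9 and 7.69% of lymphoid cells in CON rats 5, 6 and 7 and 4.81 to 11.8% in the LDP libraries. At a limit of 5 UMIs the share was 61.3, 62.2 and 34.6% in CON and 40.7, 54.01, 43.6 and 48.7% in LDP, a difference of -5.97 percentage points. At a limit of 20 UMIs the share was 9.17, 13.8 and 7.69% in CON and 14.4, 14.4, 12.5 and 13.9% in LDP. The cells called cycling were also the deeper ones: their median was 3584 to 7378 UMIs, against 1769 to 3557 UMIs in the other lymphoid cells, a ratio of 1.61 to 2.81 within a library. Of the clusters, 98.4% of the cells of cluster 6 (led by Cdkn3, Tpx2 and Cenpf) and 86.9% of cluster 5 (led by Pclaf and Mki67) were called. Cluster 7, led by replication histones whose copies are near-identical, held Mki67 at 2181 CPM, and 75.4% of its 65 cells of at least 1000 UMIs were called. Calls were also made outside clusters 5 to 7. In clusters 10 and 11 the share was 20.9 and 21.5%, and in clusters 1 and 8 it was 10.997 and 9.38%. Mean Mki67 in clusters 1, 8, 10 and 11 was 13.6, 34.4, 350 and 47.7 CPM, against 1867 to 2181 CPM in clusters 5 to 7. Whether the called cells of those 4 clusters were dividing was not tested. In clusters 2 and 9 the share was 1.91 and 1.47%. In the cluster led by early genes 4.80% were called, and in the cluster led by later genes 2.73%. These shares do not give how often cells of a stage divide. Cycle genes were not left out of the clustering, so dividing cells of any stage could fall in clusters 5 to 7. Cluster 5 held Il7r at 151, Igll1 at 90.1 and Vpreb1 at 57.6 CPM. Cluster 6 came mostly from CON rat 6, with 162 of 188 cells, whereas cluster 5 made up 7.61 to 18.7% of each of the 7 libraries.

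Injured and uninjured discs were compared for the share of cycling cells. The mean was 22.3 ± 4.30% in CON (SD, n = 3) and 20.6 ± 0.741% in LDP (n = 4), a difference of -1.73 percentage points (two-sided exact permutation test, p = 0.686), and the smallest p that 3 against 4 libraries allow is 0.0571. The LDP libraries lay within the range of the CON libraries. The direction turned when the limit was set at 20 UMIs (3.56 percentage points, exact permutation p = 0.114) or Hmgb2, the most abundant gene of the list, was left out (1.79 percentage points, exact permutation p = 0.571). Without rat 6 the difference was 0.812 percentage points, and without CON rat 7 alone it was -3.28.

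**Figure D3:**
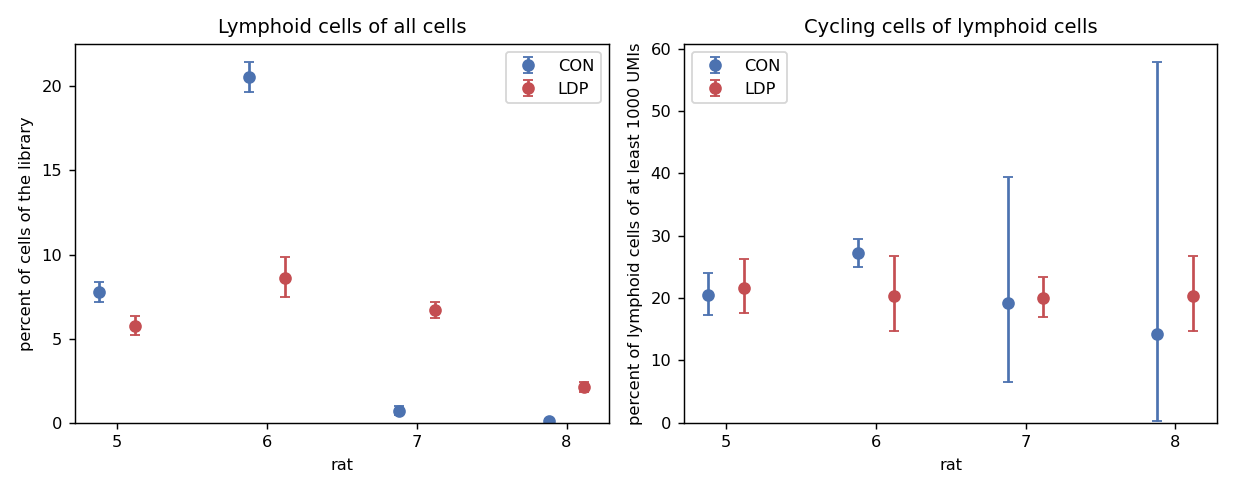
Left, lymphoid cells as a percent of all cells of each library; right, cycling cells as a percent of lymphoid cells of at least 1000 UMIs, by rat, with CON in blue and LDP in red. Points are libraries and bars are 95% Clopper-Pearson intervals, which cover counting error only; CON rat 6 is the highest point at left with 20.5%, and at right the libraries with many cells lie between 20.03 and 27.2%.

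Cycling lymphoid cells were then compared with the other lymphoid cells of the same library in the 6 libraries that held at least 20 of each (CON rats 5 and 6, LDP rats 5 to 8, 830 cycling and 2708 other cells). Values are differences on the log2(mean CPM + 1) scale, cycling minus other, tested by limma with the library as block and Benjamini-Hochberg adjustment over 6893 genes. The 6 libraries come from 4 rats, and rats 5 and 6 each enter with a CON and an LDP library as if these were independent. The genes used for the call and a list of cyclins and cycle inhibitors were left out of the test. Of all genes tested, 676 were higher in cycling cells (9.81%) and 454 were lower (6.59%), and 610 and 363 of these moved that way in all 6 libraries, as did 11.6% and 8.88% of all genes tested whether called or not. The 1130 calls became 334 (242 higher, 92 lower) with each cell drawn to 1000 UMIs, 348 with cells divided at 5 cycle UMIs, and 669, 711 and 750 without rat 5, 6 or 7. Of the genes that made the call, given as a description, 40 of 41 S phase genes and 50 of 51 G2/M genes were higher in all 6 libraries, with a median of 2.90 and 3.63.

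The genes with the largest differences on the higher side are given as values without their test, since the cells were divided on S and G2/M genes. Pclaf, a PCNA-binding factor, was higher by 6.96, with 194 CPM in cycling and 0.594 CPM in other cells. Racgap1 and Kif4a, which act in cytokinesis and on the spindle, were higher by 6.07 and 5.78. Cyclin A (Ccna2) was higher by 5.85, the mitotic kinase Plk1 by 5.78 and Fbxo5, an inhibitor of the anaphase-promoting complex, by 5.74. Kifc1, Ncapg, Fam111a and LOC100359539, a gene named only by its number, completed these 10 genes, at 5.55 to 5.64. All 10 were picked from genes that were higher in 6 of 6 libraries, so that agreement is no separate result.

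Genes of later B-cell stages fell in cycling cells at the limit of 10 UMIs. Of 12 tested genes of immature and mature B cells 7 fell and none rose, beside 6.59% and 9.81% of all genes tested. The median of the list was -1.09 against -0.03 over all genes tested. Cd74 went from 1058 CPM in other cells to 431 CPM in cycling cells, a fall in 5 of 6 libraries (log2 difference -1.22, SE 0.19, limma adjusted p = 0.000511). Ms4a1 fell by 2.30, the class II gene RT1-Ba by 1.89, Fcmr by 1.43, the activation marker Cd69 by 1.11, Cd40 by 1.08 and Zfp318 by 0.93. In LDP rat 8, where the later genes were lowest, the difference was 0.04 for Cd74, 0.28 for Fcmr and 1.15 for Ms4a1, but -2.19 for RT1-Ba and -2.08 for Cd40. With each cell drawn to 1000 UMIs before averaging, Cd74 and Cd69 still passed the test (adjusted p = 0.00131 and 0.00362) and Ms4a1, Fcmr, RT1-Ba and Cd40 did not (adjusted p = 0.0600, 0.0530, 0.322 and 0.136), with the same direction in each. With cells divided at 5 cycle UMIs none of the 7 passed, and the difference was -0.11 for Cd74, -0.16 for Cd69, 0.13 for Ms4a1 and 0.18 for Cd40.

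The recombinase and the markers of the class moved less. Rag1 averaged 548 CPM in cycling and 881 CPM in other cells and fell in 5 of 6 libraries (log2 difference -0.78, SE 0.19, limma adjusted p = 0.0101), by as much as -1.65 in LDP rat 8 and with 0.07 in CON rat 5. With cells divided at 5 cycle UMIs the direction turned for Rag1 (0.093), Cxcr4 (0.038) and Foxo1 (0.075), and none of these passed the test. Rag2 went the other way, with 83.0 and 52.4 CPM (log2 difference 0.71, limma adjusted p = 0.0211), but lost that difference when cells were drawn to 1000 UMIs (-0.01). Cd79b fell by 0.45 and Cxcr4 by 0.43 (limma adjusted p = 0.0125 and 0.0277), whereas Blnk, at 735 and 652 CPM, did not pass the test (adjusted p = 0.223). Cd24, a surface protein of B-cell precursors, rose by 0.51 in 6 of 6 libraries. Of 18 tested pro-B and pre-B genes 2 rose (Rag2 and the chromatin remodeller Smarca4) and 4 fell (Rag1, Ebf1, Foxo1 and Arpp21), beside 9.81% and 6.59% of all genes tested. Il7r, Dntt, Vpreb1 and Igll1 did not pass the test, at 0.51, -0.77, 0.76 and 0.59. The Vpreb1 difference was 1.85 to 2.15 in CON rats 5 and 6 and LDP rat 5, and -2.002 in LDP rat 6.

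**Figure D4:**
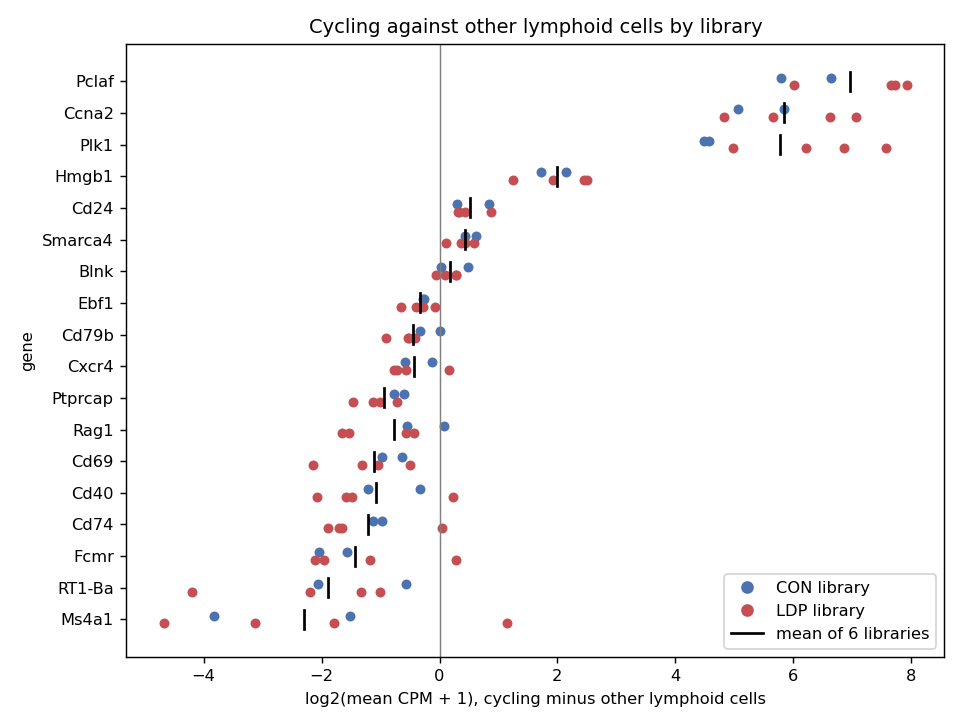
Difference of log2(mean CPM + 1) between cycling and other lymphoid cells for 18 genes, with a point for each library (CON blue, LDP red) and a black bar at the mean of 6 libraries. Pclaf, Ccna2 and Plk1 lie at 4.49 to 7.94 in every library, Rag1 and Cd79b lie mostly below 0, and Cd74, Ms4a1 and Fcmr lie below 0 in every library but LDP rat 8.

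Among other groups, Ptprcap and Laptm5, proteins of the lymphocyte membrane and lysosome, fell by 0.95 and 0.50 in 6 of 6 libraries, and so did the kinase Syk by 0.56. The DNA-bending protein Hmgb1 rose by 2.00 (SE 0.21, limma adjusted p = 9.82e-06), and Prkdc, the kinase of end joining, rose by 0.95. Of 12 immediate early and heat shock genes none passed the test. Of 5 disc cell genes none passed either, with a median of -0.47, and globin Hba-a2 and Hbb were lower in cycling cells by -1.84 and -1.63 (limma adjusted p = 0.0375 and 0.0177); the part of these transcripts in the other differences was not tested. Among the genes that fell most were Slfn5 (-2.89), the chemokine Ccl3 (-2.56), Smagp (-2.31), Cul9 (-2.15), Scrg1 (-2.14; 0.022 with cells divided at 5 cycle UMIs), a gene known from cartilage, and Pqlc2 (-1.97). Whether the cycling difference itself differed between CON and LDP was tested by limma on the 6 library differences from 4 rats, and 0 of 6893 genes passed (196 at an unadjusted p under 0.05).

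Injured and uninjured discs held lymphoid cells in shares that did not differ beyond their spread. The authors clustered and named CON and LDP cells separately, so the limits of the class may differ between them. At 8 weeks each CON library held 0 cells named endothelial, against 55 to 225 in LDP. In every comparison of CON with LDP lymphoid cells here, naming and injury cannot be told apart. Lymphoid cells made up 7.77, 20.5, 0.703 and 0.109% of cells in CON rats 5 to 8 and 5.77, 8.6, 6.70 and 2.13% in LDP rats 5 to 8. The CON libraries spanned the whole range and the LDP libraries lay inside it. The means were 7.28 ± 9.496% and 5.80 ± 2.71% (SD, n = 4 each), a difference of -1.48 percentage points (two-sided exact permutation test, p = 0.886, smallest possible 0.0286). LDP was higher than CON in rats 7 and 8 and lower in rats 5 and 6. Without rat 6 the difference turned to 2.01 percentage points. Counting instead every cell with a Cd79b UMI at 1000 UMIs gave 3.76 ± 5.21% and 3.00 ± 1.56% (exact permutation p = 0.914).

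None of 18 marker genes had shares of lymphoid cells that differed between CON and LDP after adjustment, and with 3 against 4 libraries none could reach 0.05. Of the 18 genes, only Vpreb1 and Igll1 had groups that did not overlap at 1000 UMIs per cell. With 3 against 4 libraries, a gene without any difference has such a gap with a probability of 0.0571. Both genes are expressed by the same early cells and are not separate observations. Vpreb1 was found at 1000 UMIs in 0.833, 1.55 and 0% of cells in CON rats 5, 6 and 7 and in 3.52, 5.88, 3.24 and 20.3% in LDP rats 5 to 8. Igll1 was found in 2.67, 1.16 and 0% in CON and in 4.88, 4.28, 5.08 and 16.0% in LDP. Each had an exact permutation p of 0.0571, the smallest possible, and an adjusted p of 0.514 over the 18 genes. The differences were 7.45 and 6.29 percentage points, and LDP rat 8 held the highest share of both genes. With all UMIs counted the groups overlapped for Vpreb1, which was found in 4.09, 5.35 and 9.09% of cells in CON and in 7.05, 16.8, 10.2 and 33.7% in LDP. For Igll1 they stayed apart, with 8.03, 3.21 and 6.06% in CON and 9.82, 8.38, 14.4 and 33.7% in LDP. Rag1 was found in 37.3, 46.2 and 11.5% in CON and in 24.4, 49.2, 27.1 and 48.7% in LDP (exact permutation p = 0.629), and its difference of 5.66 percentage points turned to -4.42 without CON rat 7. Blnk differed by -2.05 and Cxcr4 by -6.70 percentage points (exact permutation p = 0.686 and 0.514), and without CON rat 7 by -3.18 and -13.2.

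Across all genes the fit of LDP against CON called none. On simulated data it recovered 2% of genes changed 1 log2 unit and 39% of those changed 2 units. A count of 0 therefore does not show that no gene changed. limma on log2(mean CPM + 1) of the lymphoid cells, with the rat as block, gave 0 of 7044 genes higher and 0 lower at an adjusted p of 0.05 (0% in each direction), and 172 genes at an unadjusted p under 0.05. edgeR on the summed counts called 0 genes as well (225 unadjusted) and DESeq2 called 2, both lower. LDP rat 8 has no CON partner in this fit and does not bear on the difference, which rests on rats 5, 6 and 7. Of the 7044 genes, 12.6% were higher and 7.75% lower in LDP in all 3 rats; of 17 tested B-cell identity genes 7 were higher and 2 lower in all 3, of 38 S phase genes 15 were higher and 2 lower, and of 50 G2/M genes 5 were higher and 2 lower. The list medians were 0.34, 0.26 and 0.14, against 0.04 over all genes tested. Of 18 tested pro-B and pre-B genes 4 were higher and 0 lower in all 3 rats (median 0.27). Other lists lay on the lower side: of 16 immature and mature B genes 0 were higher and 1 lower in all 3 rats (median -0.27), of 5 plasma cell genes 0 and 1 (median -0.18), and of 12 immediate early and heat shock genes 0 and 2 (median -0.22).

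The 5 genes of smallest p on the lower side were each less abundant in lymphoid cells than in IVD cells of every one of the 7 libraries. Mgp, an inhibitor of calcification in cartilage, lay at 686, 675 and 393 CPM in the lymphoid cells of CON rats 5, 6 and 7 and at 99.1, 60.7, 181 and 112 CPM in LDP rats 5 to 8. Cytl1, a secreted protein of cartilage, lay at 123, 167 and 149 CPM in CON and at 17.9, 11.8, 58.7 and 52.1 CPM in LDP. Both genes were picked for a small p in these same values, so the gap between their CON and LDP libraries is no separate result. The log2 differences of Mgp and Cytl1 were -2.45 (SE 0.43) and -2.58 (SE 0.49), lower in 3 of 3 rats, with limma adjusted p = 0.449 and 0.550. The other 3 genes of smallest p on that side were RGD1305645 (-2.36), S100a6 (-1.77) and Dap (-2.04). On the higher side they were AABR07034739.1 (1.08), Atp5md (1.501), Rbx1 (2.49), Iah1 (1.68) and LOC103694169 (0.97), each higher in 3 of 3 rats with an adjusted p of 0.999. The early genes Dntt (2.11), Igll1 (1.47), Vpreb1 (0.92) and Il7r (0.31) did not pass the test either (limma adjusted p = 0.999 each). Il7r was lower in LDP in rat 5 and Vpreb1 in rat 7, and the Dntt difference came mostly from rat 6 (0.962 against 41.5 CPM), with 30.9 against 32.1 CPM in rat 5.

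Genes of disc cells were counted in lymphoid cells at a small part of their level in IVD cells. Mgp in lymphoid cells was 14.1, 11.01 and 4.90% of its level in the IVD cells of the same library in CON rats 5, 6 and 7 and 2.33, 1.48, 3.84 and 3.54% in LDP rats 5 to 8. Comp, a cartilage matrix protein, was 5.71, 7.44 and 6.92% in CON and 1.82, 1.41, 7.17 and 6.20% in LDP. LDP rats 5 and 6 were low for both genes, and LDP rats 7 and 8 were at the CON level for Comp. Of the 5 disc cell genes, 3 were lower in LDP in all 3 rats, beside 7.75% of all genes tested, and the list's median difference was -1.48 against 0.04 over all genes tested. Summed, they lay at 590, 554 and 724 CPM in CON and at 177, 113, 594 and 612 CPM in LDP, against 9031 to 12234 CPM in IVD cells. The part of disc RNA in the LDP difference was not tested, nor was that of the separate naming of the class in CON and LDP.

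Leaving out CON rat 7 changed the count of calls. With libraries of at least 50 lymphoid cells, which leaves rats 5 and 6 as the pairs, limma called 12 genes higher and 89 lower. Mgp and Cytl1 differed by -3.12 and -3.21 in it. That fit has 1 residual degree of freedom and takes its spread entirely from the trend over all genes, so its p-values assume that each gene varies like others of its level. Of the 89 lower genes 71 (79.8%) were over 5-fold higher in IVD cells than in lymphoid cells by means with a pseudocount of 1, against 3.40% of the 6934 genes tested, and Hba-a2 and Hbb were among the rest. The 12 higher genes held Dntt (2.24) and Vpreb1 (1.63), and also Hist1h3b and Hist2h4a, replication histones whose copies are near-identical to other histone genes. None of those 12 was higher in IVD cells.

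**Figure D5:**
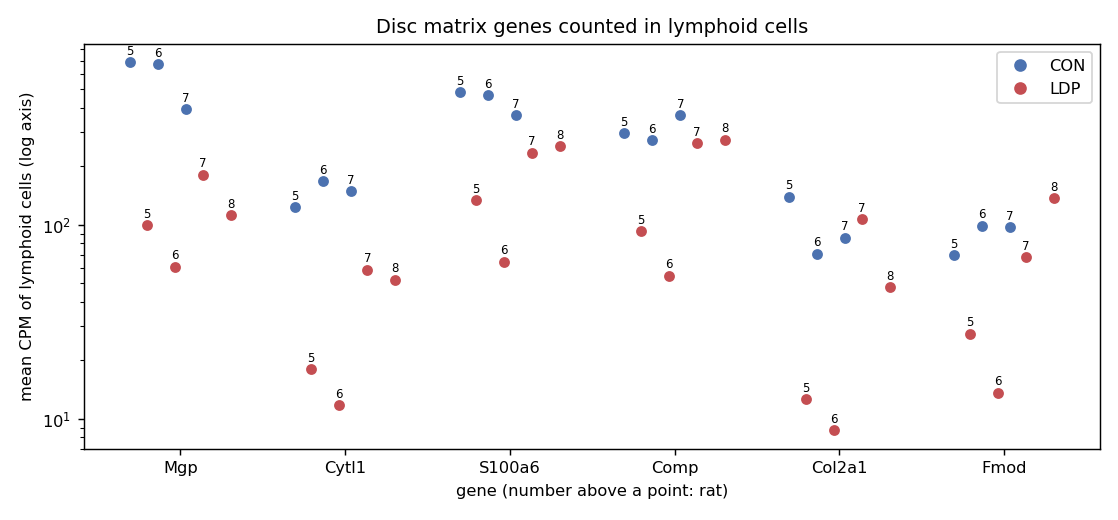
Mean CPM of 6 disc genes in the lymphoid cells of each library, on a log axis, with CON in blue, LDP in red and the number of the rat above each point. LDP rats 5 and 6 are the lowest points for every gene, and for Comp, Col2a1 and Fmod LDP rat 7 lies among or near the CON points.

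Genes of survival, homing and arrest were also measured by library. Bcl2l11 (Bim), which drives death of B-cell precursors, lay at 667, 576 and 236 CPM in CON and at 435, 412, 513 and 349 CPM in LDP; its opponent Bcl2 was at 81.0 CPM in CON rat 7 and at 1.15 to 4.06 CPM in the other 6 libraries. The arrest genes Btg2 and Cdkn1b lay at 1074 to 3561 and at 163 to 496 CPM. Of the homing genes, the integrin Itga4 lay at 47.5 to 115 CPM, while S1pr1, which guides exit into the blood, lay at 10.7 to 55.5 CPM and Ccr7 at no more than 19.01 CPM. Of 8 survival genes and 8 homing genes tested in LDP against CON none passed, with medians of 0.18 and -0.17.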

How the data were processed

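Per the labels, the libraries were 10x Genomics 3′ v3.1 libraries of digested disc tissue. The authors processed them in Partek Flow against rn6 (submitters' processing notes), filtered cells on genes, UMIs and mitochondrial share, clustered CON and LDP apart by K-means and named the clusters. The aligner is not given in the sources used here. The deposited gene values are log2 values, log2(CPM + 1) per cell. As deposited, cell totals are expected counts, the number of expressed genes is a count, and mitochondrial and ribosomal shares are in percent.

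Multiplying back by the cell total gave whole numbers (within 0.02) for 99.4% of values above 0, and these were used as UMI counts. The members and gene lists were chosen with earlier results of these data known. Groups and rat numbers came from the sample labels. The number of genes listed was 14420 in CON and 14319 in LDP, of which the 14050 in both were used. Mean CPM per library was fitted by limma 3.58.1 (eBayes with trend) with pseudocount 1, at least 20 lymphoid cells per library and a mean of at least 10 CPM; calls took a Benjamini-Hochberg adjusted p under 0.05. edgeR 4.0.16 (TMM) and DESeq2 1.42.0 on summed counts were alternatives. Shares were compared by two-sided exact permutation tests (scipy 1.17.1). Clusters were made in scanpy 1.11.5 (2000 variable genes, 20 components, Leiden resolution 0.5). Genes are named from the fixed lists, from the 20 highest by level or ratio, and up to 10 called genes per direction moved in every library or, with none called, the 5 of smallest p.

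Pairing rests on the animal, since each rat gave both a CON and an LDP library. The correlations of their deviations from the group means were -0.138, 0.297 and -0.155 in rats 5, 6 and 7. Data were simulated around the real mean levels, with the same spread between libraries for every gene and no rat effect. The rates below hold for that setting only. For LDP against CON (7044 genes), limma recovered 2% of genes changed 1 log2 unit and 39% of those changed 2 units. There edgeR recovered 31 and 92%, with 4 unchanged genes called, and DESeq2 19 and 74%. For cycling against other cells (6893 genes) limma recovered 45 and 89%, with 3 unchanged genes called. P-values measure the spread between libraries, which in the cycling fit come from 4 rats, 2 of them with 2 libraries each. The limma fit of LDP against CON has 2 residual degrees of freedom beside 9.26 prior ones. Its p-values thus rest mostly on the spread of other genes of like level. With 600, 1546, 26, 369, 187, 649 and 187 cells of at least 1000 UMIs in the 7 libraries, 3 cells are 0.194 to 11.5% of a library.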

Additional observations from a re-analysis of the deposited data

Results flagged for a closer look

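Of 40 sets of 4 libraries examined, 5 held a library far from the other 3, where chance gives about 2. In 4 of them that library was LDP rat 8. At 1000 UMIs per cell, Il7r was found in 31.6% of its lymphoid cells against 3.74 to 8.17% in the other LDP libraries, Dntt in 20.3% against 1.90 to 3.39%, Vpreb1 in 20.3% against 3.24 to 5.88% and Igll1 in 16.0% against 4.28 to 5.08%. These 4 genes are expressed by the same early cells and are not separate observations. LDP rat 8 gave 187 cells at this depth, and its CON partner 7. The fifth was Cd8b in LDP rat 6, at 0.535% against 0% in the other LDP libraries, which is 1 cell of 187 and below the limit that a count of 0 allows there.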

How the results depend on the processing

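The pairing by rat (replicate block) left the difference in lymphoid share at -1.48 percentage points (sign flips, exact p = 0.875), that in cycling share at -1.64 (exact p = 1), and 0 markers past the threshold; without the block limma called 0 genes for LDP against CON. Without 1 rat, the lymphoid share ran from -3.97 to 2.01 percentage points, turned without rat 6, and the cycling share from -3.09 to 0.812, also turned without rat 6. The cycling share turned to 3.56 at the limit of 20 UMIs and to 1.79 without Hmgb2, an alternative added after the data were seen. Genes called for LDP against CON numbered 0 as reported, 2 with a pseudocount of 10, 6 at a mean of at least 50 CPM, 101 with libraries of at least 50 cells, 2 by DESeq2, and 0 to 95 without 1 rat, the most without rat 7 and 8 without rat 5. Genes called for cycling cells numbered 1130 as reported, 348 at the limit of 5 UMIs, 334 over 1000 drawn UMIs (327 of them among the 1130), 479 with no replicate block (no library block), and 669 to 1110 without 1 rat (669 without rat 5, 711 without rat 6, 750 without rat 7). Of 18 marker shares, 16 to 18 kept their direction under each alternative; besides Rag1, Top2a turned without CON rat 7 or rat 7, and Mki67 and Cd3g without rat 5. Directions also turned, without passing the test, for Blnk shares with all UMIs (5.76), Rag1 shares without CON rat 7 (-4.42, and -1.01 to 12.8 without 1 rat, turned without rat 7), Rag2 over drawn UMIs (-0.0091), and at the limit of 5 UMIs for Rag1 (0.093), Cxcr4 (0.038), Foxo1 (0.075), Ms4a1 (0.13), Cd40 (0.18) and Scrg1 (0.022). The cause of these changes was not tested. Depth limits the lymphoid cells: CON rats 7 and 8 hold 33 and 7 of them, a gene at 50 CPM gives few UMIs per library there, and 3 against 4 libraries cannot reach p of 0.05 in an exact test.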

Other observations

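Lymphoid cells of 2-week libraries, from rats 1 to 4, were counted by the same call of cycling cells. In CON rat 1, 85 of 91 cells (93.4%) were called cycling, with Mki67 found at 1000 UMIs in 79.1%, Rag1 in 7.69% and Cd74 in 2.20% of cells. In LDP rats 3 and 4 the share was 22.0 and 26.5% of 2287 and 1343 cells, and Rag1 was found in 47.3 and 34.4%; in LDP rat 2 it was 2 of 21 cells. CON rats 2 to 4 and LDP rat 1 held 0 lymphoid cells, so CON rat 1 was the only CON library at 2 weeks with any. Its lymphoid cells had a median of 5296 UMIs, against 1319 to 1860 UMIs in LDP rats 2 to 4. The 2-week libraries come from other rats and an earlier time, and their cells were clustered and named apart. Rat, time and naming therefore cannot be told apart, and no test was made. The scanpy phase call on all UMIs put into S or G2/M 25.7 to 43.8% of lymphoid cells in the 7 libraries at 8 weeks.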
